A study of Mus musculus with 8 samples.

Results

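The transcription factor NRF2, encoded by Nfe2l2, its inhibitor and its antioxidant targets were followed as a set of 10 genes: Nfe2l2, Keap1, Nqo1, Hmox1, Gclc, Gclm, Gsr, Srxn1, Txnrd1 and Gpx4. The genes were chosen by symbol, and the symbols were matched to Ensembl gene identifiers through GENCODE release M21. All 10 of the 10 had a row among the 13637 genes of the deposited table. PolyA RNA from mouse hearts at embryonic day 9.5 was sequenced in 4 Bmp2GOF;Nkx2.5-Cre samples (GOF) and 4 wild-type samples (WT). The GOF genotype joins a Bmp2 gain-of-function allele to a Cre recombinase under the control of Nkx2.5, which acts in cardiac progenitors and their descendants and not in every cell of the heart. The labels give neither strain, nor whether the wild types carried the Cre or the allele, nor whether a sample was 1 embryo or a pool, so a p-value here speaks to the variation among the 8 samples alone, part of which may be technical.

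The table sums implied a depth of 13182009 to 17927674 reads per GOF sample and 12287069 to 16697480 reads per WT sample. Levels are given in normalized reads, the unit of the deposited values, which carry no correction for gene length, so levels of different genes are not compared. Bmp2, the gene raised by the allele, had 95.8, 102, 108 and 91.2 normalized reads across the GOF samples (numbered 1 to 4, in that order throughout) and 61.7, 59.6, 54.4 and 49.5 across the WT samples. It was higher in each of the GOF samples than in any WT sample (log2 change 0.81 ± 0.07 SE, limma adjusted p = 2.91e-07, exact two-sided permutation p = 0.0286, the lowest value possible with these group sizes). Cardiomyocyte markers were abundant, with a summed level of 36905 to 43729 in GOF and 35050 to 39612 in WT over 12 of 12 genes. GOF sample 1 stood apart on the second principal component (20.5, against -12.2 to 3.36 for the other GOF samples).

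NRF2 is a transcription factor of the cap'n'collar family that is normally bound by KEAP1, a sensor of electrophiles, and handed to a cullin ubiquitin ligase for destruction. When KEAP1 is modified by oxidants, NRF2 accumulates, pairs with a small Maf protein and binds antioxidant response elements (AREs) in front of genes for glutathione synthesis, thioredoxin reduction, quinone reduction and haem breakdown. BACH1, a repressor, competes for the same elements. NRF2 is regulated largely as a protein, so mRNA levels of Nfe2l2 and Keap1 do not measure its activity.

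The members did not move together. Hmox1, which encodes the inducible haem oxygenase, rose to 2.67 times its WT mean, while Txnrd1, which encodes cytosolic thioredoxin reductase, fell to 0.6 times its WT mean. Gclc, Gsr and Keap1 fell by smaller amounts, Gpx4 rose slightly, and Nfe2l2, Nqo1, Gclm and Srxn1 did not pass the threshold. In all, 2 of 10 members were higher and 4 were lower at a Benjamini-Hochberg adjusted p under 0.05 in limma, fitted to log2(value + 1) over all genes. Of all 13637 genes, 56.3% passed the same threshold, 28.2% higher and 28.2% lower. The 60% of members called is therefore near the share of all genes. The GOF samples lay entirely above the WT samples for 1 member and entirely below for 4, against 25.6% and 25.3% of all genes (50.9% in either direction). Their median log2 change was -0.12, against -0.002 over all genes. It rests on single samples and gives no direction for the set: leaving out GOF sample 3 made it 0.0128, leaving out GOF sample 1 made it -0.194, and it was -0.0738 once WT sample 2 was dropped. A positive log2 change means a higher level in GOF.

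**Figure D1:**
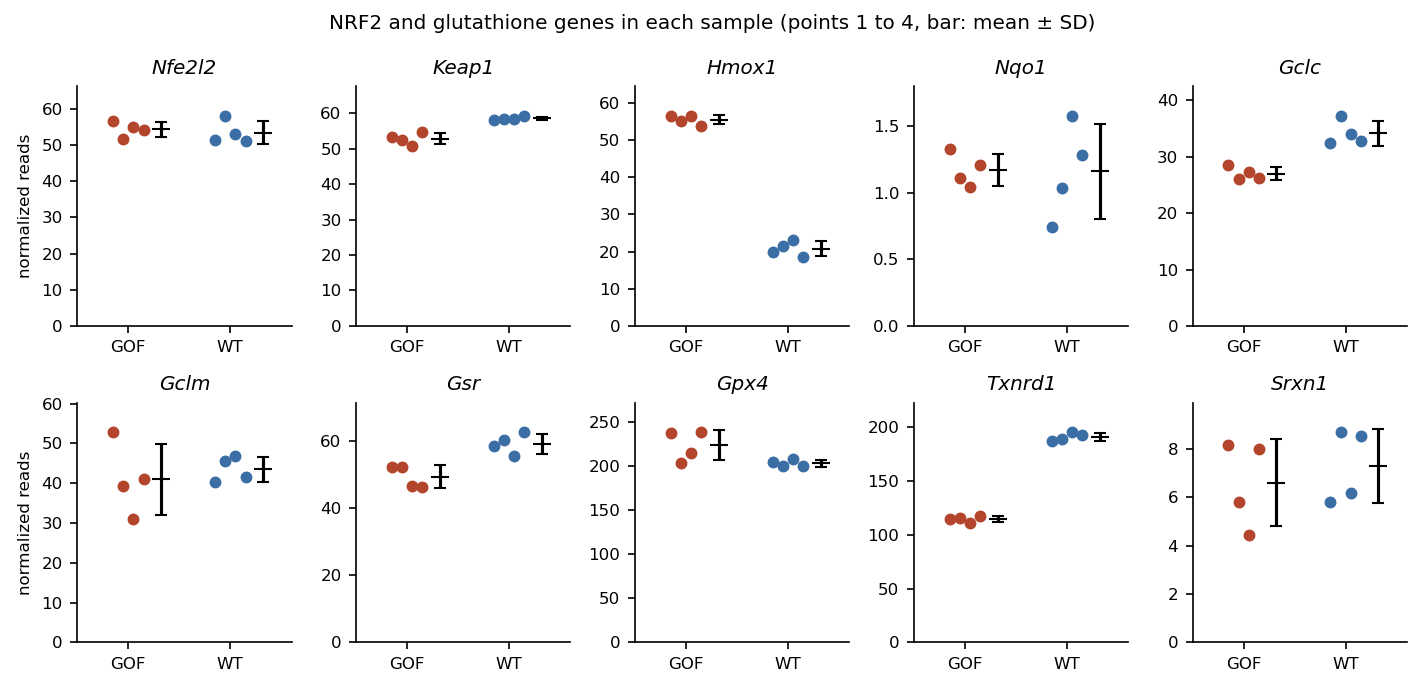
Normalized reads of the 10 genes in each of 4 GOF samples (left, red) and 4 WT samples (right, blue), with a separate axis from 0 for each gene and the mean ± SD beside the points. The groups are apart for Hmox1, Txnrd1, Gclc, Gsr and Keap1, and overlap for the other 5 genes.

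In the textbook model AREs lie in front of several of these genes, so the proximal promoters were searched for them. RefSeq promoters (GRCm38.p6, 250 bases before and 50 after a start site) were matched by symbol for 7 of the 10 genes, with 12 promoters in all. Hmox1, Gclc and Gsr were not among the matched entries. The ARE core was searched on both strands as TGACNNNGC. It was found in 4 of the 12 promoters, 1 each of Nfe2l2, Gclm, Srxn1 and Txnrd1, against 12.4% of all 32851 promoters in the table. These 4 are shown because they hold the match in genes that behaved differently: Txnrd1 fell, while Nfe2l2, Gclm and Srxn1 did not pass the threshold. Sequences run 5′ to 3′ on the strand of the gene (minus for Nfe2l2, plus for the others), and capitals mark matches to TGACNNNGC or, in Srxn1, also to TGAGTCAGC.
Nfe2l2, chr2:75704614-75704913: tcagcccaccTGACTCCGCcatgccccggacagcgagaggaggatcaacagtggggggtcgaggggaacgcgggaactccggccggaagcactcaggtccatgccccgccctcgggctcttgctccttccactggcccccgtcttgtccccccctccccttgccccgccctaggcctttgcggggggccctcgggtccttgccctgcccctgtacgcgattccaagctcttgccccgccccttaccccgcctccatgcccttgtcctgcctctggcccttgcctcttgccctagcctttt
Gclm, chr3:122245307-122245606: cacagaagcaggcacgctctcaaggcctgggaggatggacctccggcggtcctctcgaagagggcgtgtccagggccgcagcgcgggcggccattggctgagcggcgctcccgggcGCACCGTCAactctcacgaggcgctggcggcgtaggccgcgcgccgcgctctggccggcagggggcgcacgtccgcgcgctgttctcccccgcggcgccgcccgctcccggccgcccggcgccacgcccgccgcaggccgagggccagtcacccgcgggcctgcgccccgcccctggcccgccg
Srxn1, chr2:152105274-152105573: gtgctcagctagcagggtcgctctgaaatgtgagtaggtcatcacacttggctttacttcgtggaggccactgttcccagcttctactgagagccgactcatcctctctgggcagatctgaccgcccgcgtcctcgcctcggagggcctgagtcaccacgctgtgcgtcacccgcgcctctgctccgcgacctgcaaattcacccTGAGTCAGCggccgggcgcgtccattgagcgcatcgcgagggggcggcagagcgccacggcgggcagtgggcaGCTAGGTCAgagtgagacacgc
Txnrd1, chr10:82858956-82859255: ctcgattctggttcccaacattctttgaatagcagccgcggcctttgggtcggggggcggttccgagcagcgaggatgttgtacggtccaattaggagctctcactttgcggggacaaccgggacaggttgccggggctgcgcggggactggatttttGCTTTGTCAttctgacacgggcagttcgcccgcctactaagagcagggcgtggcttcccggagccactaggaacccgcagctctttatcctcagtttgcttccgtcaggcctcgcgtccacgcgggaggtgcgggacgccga
Counted from the start site, the match began at -240 in Nfe2l2 on the strand of the gene, and at -134 in Gclm, 29 in Srxn1 and -92 in Txnrd1 on the opposite strand. Srxn1 also held the ARE form built on an AP-1 site, TGAGTCAGC, at -45, which 0.414% of all promoters hold. That match overlaps 1 of its AP-1 sites (TGACTCA on either strand), which begin at -102 and -45 and occur in 5.2% of all promoters. The other form, TGACTCAGC, occurs in 0.454% of all promoters and was found in none of the 12. The Txnrd1 promoter shown is 1 of 3 listed for that gene. Over all genes tested, 31.6% of 1743 genes with the ARE core in a listed promoter were higher and 27.1% lower, against 27.3% higher and 29.9% lower of 8569 genes without it, and no test was made of this difference. A match is a run of letters and not a measured binding site.

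Nfe2l2 (ENSMUSG00000015839, protein-coding, GRCm38 chromosome 2, 75675513 to 75704641, minus strand) had 56.6, 51.6, 55 and 54 normalized reads in GOF, against 51.4, 58, 53.2 and 51 in WT. The groups overlapped fully, with means of 54.3 ± 2.08 for GOF and 53.4 ± 3.2 for WT (n = 4 each, SD). No change was called, with a log2 change of 0.02 and a 95% interval of -0.09 to 0.14 (limma adjusted p = 0.718). Keap1 (ENSMUSG00000003308, chromosome 9, 21229730 to 21239361, minus strand), which encodes the adaptor that targets NRF2 for degradation, had 53.3, 52.4, 50.9 and 54.6 in GOF and 58.2, 58.5, 58.4 and 59.2 in WT. Each GOF sample lay below each WT sample, and the fall was small, at -0.15 ± 0.04 (log2, SE, limma adjusted p = 0.0104). In heart tissue, fewer cells of a type and less RNA per cell cannot be told apart. Keap1 shares 510 exonic bases with Gm16754, an antisense gene that was itself higher, at 5.59 in GOF and 1.5 in WT (log2 change 1.4, limma adjusted p = 2.52e-07). The labels do not say whether reads were counted by strand, so reads in those bases cannot be assigned to either gene with certainty.

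Hmox1 (ENSMUSG00000005413, chromosome 8, 75093621 to 75100589, plus strand) encodes heme oxygenase 1, which splits haem into biliverdin, iron and carbon monoxide. It had 56.5, 55.1, 56.5 and 53.9 normalized reads in GOF and 19.8, 21.6, 23.2 and 18.5 in WT. The GOF samples were tightly grouped, and all of them lay far above the highest WT sample. The log2 change was 1.38 ± 0.07 (SE, limma adjusted p = 1.44e-10), and 243 of all genes (1.78%) had a larger rise. Haem oxygenase 1 is also abundant in macrophages. The 4 of 12 macrophage markers measured (Csf1r, Mrc1, Lyz2 and Cd68) summed to 9.08 to 10.1 in GOF and 12.6 to 14.4 in WT. They went both ways, with Csf1r higher (log2 change 0.82, limma adjusted p = 0.000114), Mrc1 and Lyz2 lower (-1.21 and -0.9985, limma adjusted p = 1.57e-05 and 9.41e-06) and Cd68 not called (limma adjusted p = 0.4), and the part of macrophages in the level of Hmox1 was not tested. Nqo1 (ENSMUSG00000003849, chromosome 8, 107388225 to 107403206, minus strand), which encodes a quinone reductase and is a standard readout of NRF2 in adult tissues, was barely detected. It had 12 to 19 reads in a sample, which is 1.32, 1.11, 1.04 and 1.2 normalized reads in GOF and 0.739, 1.04, 1.57 and 1.29 in WT. The groups overlapped, and the interval of the log2 change, -0.31 to 0.35, includes changes in both directions (limma adjusted p = 0.924).

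The first step of glutathione synthesis joins glutamate to cysteine and is catalysed by a ligase of a catalytic subunit, GCLC, and a modifier subunit, GCLM. Gclc (ENSMUSG00000032350, chromosome 9, 77754535 to 77794485, plus strand) had 28.5, 26.1, 27.3 and 26.2 normalized reads in GOF and 32.4, 37.2, 34.1 and 32.9 in WT. Each GOF sample was below each WT sample, and the log2 change was -0.33 ± 0.06 (SE, limma adjusted p = 0.000299). Gclm (ENSMUSG00000028124, chromosome 3, 122245557 to 122270732, plus strand) had 52.7, 39.2, 30.9 and 41 in GOF and 40.2, 45.5, 46.9 and 41.5 in WT. GOF sample 1 was above each of the WT samples and GOF samples 2 and 3 were below them, and the spread in GOF (SD 8.98) was wider than in WT (SD 3.15). Its log2 change was -0.11, with a 95% interval of -0.44 to 0.23, and was not called (limma adjusted p = 0.564). It was -0.235 without GOF sample 1, which passed (limma adjusted p = 0.0403), and 0.0153 without GOF sample 3. Over all alternatives the limma adjusted p lay between 0.0403 and 0.907. Gclm shares 296 exonic bases with Gm17494, a transcript on the other strand at 2.13 in GOF and 1.72 in WT.

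Glutathione is spent by peroxidases and returned to its reduced form by glutathione reductase, encoded by Gsr (ENSMUSG00000031584, chromosome 8, 33652523 to 33698163, plus strand). Gsr had 52.3, 52.2, 46.6 and 46.3 normalized reads in GOF samples and 58.4, 60.4, 55.5 and 62.5 in WT samples. The groups did not overlap, and Gsr fell by 0.26 ± 0.06 on the log2 scale (SE, limma adjusted p = 0.0012). Gpx4 (ENSMUSG00000075706, chromosome 10, 80047166 to 80056439, plus strand) encodes a selenium-containing peroxidase that reduces lipid hydroperoxides in membranes and restrains ferroptosis. It had 238, 204, 216 and 239 in GOF and 205, 201, 209 and 201 in WT, with GOF sample 2 inside the WT range. The rise of 0.13 ± 0.05 (log2, SE, limma adjusted p = 0.0327) lost its call in each of the 5 fits that left out GOF sample 1, GOF sample 4, WT sample 1, WT sample 2 or WT sample 4 (limma adjusted p 0.0623 to 0.107). It was also lost with quantile normalization (0.09, limma adjusted p = 0.156), in equal column totals that leave out mitochondrial genes (0.07, limma adjusted p = 0.261) and in limma without trend and robust prior (limma adjusted p = 0.0848).

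The thioredoxin arm held the largest fall of the set. Txnrd1 (ENSMUSG00000020250, chromosome 10, 82833951 to 82897712, plus strand), the selenoenzyme that passes electrons from NADPH to thioredoxin, had 115, 115, 111 and 117 normalized reads in GOF and 187, 189, 195 and 193 in WT. The highest GOF sample was far below the lowest WT sample, and the SD within a group was 2.65 in GOF and 3.52 in WT. The log2 change was -0.73 ± 0.04 (SE, limma adjusted p = 4.25e-10), and 310 of all genes (2.27%) had a larger fall. Srxn1 (ENSMUSG00000032802, chromosome 2, 152105516 to 152111376, plus strand) encodes sulfiredoxin, which repairs over-oxidised peroxiredoxins. It had 8.18, 5.82, 4.43 and 8.01 in GOF and 5.83, 8.69, 6.18 and 8.56 in WT. The groups overlapped and no change was called, at -0.14 (log2, limma adjusted p = 0.531) with a 95% interval of -0.53 to 0.25.

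**Figure D2:**
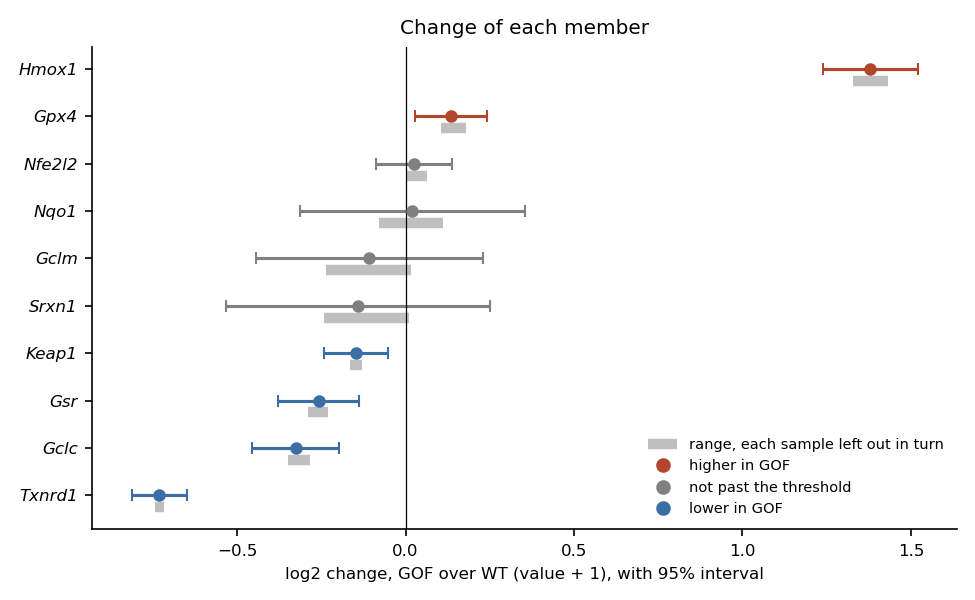
Log2 change of each gene, GOF over WT, with its 95% interval from limma, coloured by the call, and in grey the range of the change when each of the 8 samples was left out in turn. Hmox1 at 1.38 and Txnrd1 at -0.73 lie far from the others, and the grey ranges of Nqo1, Gclm and Srxn1 cross 0.

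The 5 members with overlapping groups were set against red cell markers across the samples. This comparison was not planned, the 5 were picked by their values in these data, and the permutations took no account of group. The 15 erythroid markers (globins, Alas2, Klf1 and others) summed to 15071, 4427, 2780 and 9407 normalized reads in GOF and to 2670, 7547, 7256 and 6180 in WT, and 0 of 15 passed the threshold between the groups in limma (0 higher and 0 lower at an unadjusted p under 0.05). In GOF, the order of samples 1, 4, 2 and 3 from high to low was the same for the erythroid sum, for Gclm, for Srxn1 and for Nqo1. WT sample 1 was lowest of its group in all of these. The order in GOF was 4, 1, 3 and 2 for Gpx4 and 1, 3, 4 and 2 for Nfe2l2, and WT sample 1 was lowest for neither. The order of Nqo1 rests on 13 to 19 reads a sample in GOF. Across the 8 samples, on the log2 scale, Gclm had a Pearson r of 0.812 (exact permutation p = 0.0139) and a Spearman rho of 0.762 (exact permutation p = 0.0368) with the erythroid sum, and an r of 0.801 without the 2 samples farthest from the median, GOF sample 3 and WT sample 1. For Srxn1 the r was 0.779 (exact permutation p = 0.0259) and the rho 0.667 (exact permutation p = 0.0831), with an r of 0.529 without those 2 samples. Adjusted over the 5 members whose groups overlap, neither held at 0.05 (adjusted exact permutation p = 0.0647 for each r, and 0.184 and 0.189 for the rho of Gclm and Srxn1). The r was 0.672 for Nqo1, 0.569 for Gpx4 and 0.483 for Nfe2l2 (adjusted exact permutation p = 0.108, 0.179 and 0.225), and 0.26, 0.795 and 0.657 without the same 2 samples. The rho of these 3 was 0.571, 0.333 and 0.571 (adjusted exact permutation p = 0.189, 0.428 and 0.189). With 4 samples a group no correlation within a group is given, and the part of red cells in the levels of these genes was not tested beyond this.

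**Figure D3:**
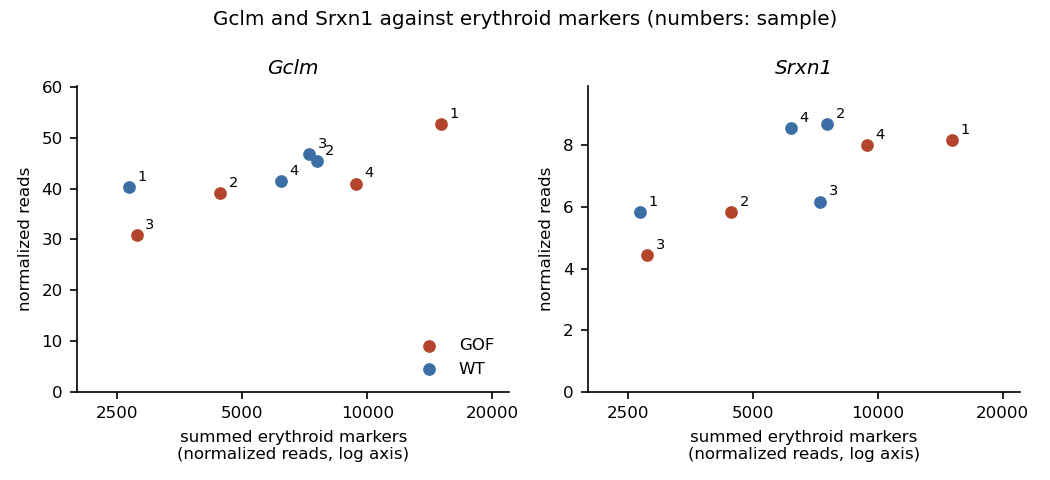
Normalized reads of Gclm (left panel) and Srxn1 (right panel) against the summed normalized reads of 15 erythroid markers on a log axis, with 1 point per sample, numbered within GOF (red) and WT (blue). Levels of both genes are high in GOF sample 1 and low in GOF sample 3, which hold 15071 and 2780 reads of the markers.

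Genes around the members came from 10 lists of the redox system, of which 145 of 160 genes that are not members were measured. Of these, 40 were higher (27.6%) and 43 lower (29.7%) in GOF, close to the 28.2% of all genes in each direction, with a median log2 change of -0.04. The split moved with the scaling, as it did for all genes. Quantile normalization gave 37 higher and 51 lower (all genes 3359 and 4406), and equal column totals that leave out mitochondrial genes gave 35 and 53 (all genes 3141 and 4666).

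The proteins that partner, compete with or degrade NRF2 were the list with the most rises among the 10, 9 of 17, with 3 falls and a median log2 change of 0.24. Maff, a small Maf gene, had 28.1, 29, 38 and 31.7 normalized reads in GOF and 7.25, 6.93, 9.08 and 6.65 in WT, each GOF sample above each WT sample (log2 change 1.95 ± 0.11 SE, limma adjusted p = 8.68e-10). The other small Maf genes, Mafk and Mafg, rose by 0.64 and 0.45, and the repressor genes Bach2 and Bach1 by 0.73 and 0.39. Bach1 had 63.8, 75, 71.1 and 61.2 in GOF and 51.3, 51.3, 51.9 and 50.5 in WT, with no overlap. Sqstm1, whose product p62 sequesters KEAP1, rose by 0.64, and the related factor gene Nfe2l1 by 0.22. The ubiquitin ligase genes Btrc, Rbx1 and Trim21 changed by -0.2, -0.2 and -0.43. Trim21 was low, at 2.55 to 2.99 in GOF and 3.43 to 4.525 in WT. Cul3, the scaffold of the KEAP1 ligase, changed by 0.09 without passing (limma adjusted p = 0.107). Of the same list, Gsk3b rose by 0.24 (limma adjusted p = 0.00351) and Syvn1 was not called (limma adjusted p = 0.589). The 3 small Maf and both Bach genes of the list thus rose, also under each other scaling, while no change of Nfe2l2 was detected. With quantile normalization, or without mitochondrial genes at equal column totals, 5 of the list were lower. Mafk, Mafg, Bach1, Nfe2l1, Btrc, Rbx1, Trim21, Cul3, Gsk3b and Syvn1 were named after their values were seen.

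Around glutathione itself, 8 of 17 measured genes were higher and 5 lower (median 0.24). The genes that rose were those for amino acid import (Slc7a11, Slc3a2, Slc1a4 and Slc1a5), cysteine synthesis (Cth), glutathione cleavage (Chac1), Ggt7 and the exporter Abcc1. The genes that fell were the synthetase gene Gss, Ggct, Ggt5, Lap3 and the transporter gene Abcc4, and with a filter of at least 5 normalized reads 2 were lower. Chac1, which cleaves glutathione in the cytosol, had 26, 28.1, 19.8 and 20.2 normalized reads in GOF and 0.680, 0.533, 0.525 and 0.551 in WT (log2 change 3.95 on the pseudocount scale, limma adjusted p = 1.95e-12). It reached 1 normalized read in the GOF samples alone. All 13637 genes of the deposited values reached that in at least 4 samples, so its presence there may rest on its GOF level. Abcc1, an exporter of glutathione and its conjugates, rose by 1.54 and Slc1a4, a neutral amino acid transporter, by 1.35 (limma adjusted p = 1.35e-10 and 1.92e-08). Slc7a11 and Slc3a2, the light and heavy chains of the cystine importer that supplies cysteine for synthesis, rose by 1.53 and 1.15, although Slc7a11 was low, at 3.68 to 6.22 in GOF and 0.847 to 1.43 in WT. Gss, glutathione synthetase, had 11.1, 9.69, 7.43 and 11.6 in GOF and 13.3, 14.3, 16.2 and 15.6 in WT, with every GOF sample below every WT sample (log2 change -0.55 ± 0.12 SE, limma adjusted p = 0.000951). At the mRNA level Gclc and Gss, from both synthesis steps, were thus lower, while Gclm was not called. The genes of the cystine importer, Abcc1 and Chac1 were higher, but Abcc4 (-0.77), Ggt5 (-0.61), Ggct (-0.54) and Lap3 (-0.41) were lower. Ggt5 reached 1 normalized read in the WT samples alone (1.16 to 1.49, against 0.373 to 0.653 in GOF). Its presence among the deposited values may therefore rest on its WT level. Abcc4 and Ggct were low too, with means of 2.42 and 2.28 in GOF and 4.8 and 3.75 in WT. In this list the amino acid import genes Slc7a11, Slc3a2, Slc1a4 and Slc1a5 thus all rose, while the genes of export and breakdown had no common direction. The genes outside the 3 largest changes, Chac1, Abcc1 and Slc1a4, were named for their roles after their values were seen. Slc7a11 and Chac1 also stand in the list of ATF4 targets given below.

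**Figure D4:**
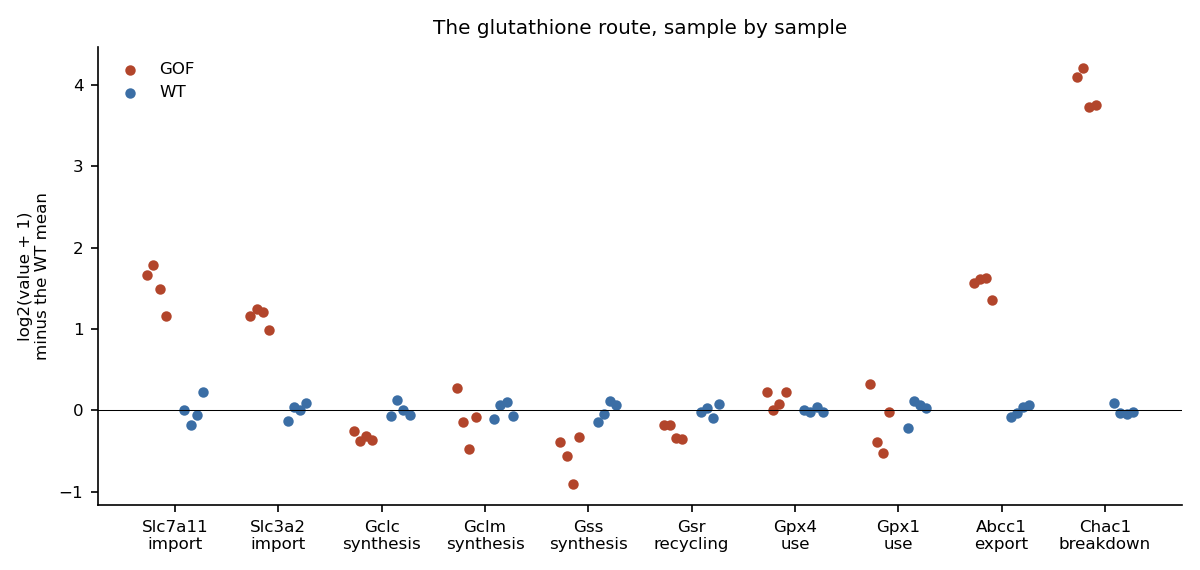
Log2(value + 1) of 10 genes of glutathione handling minus the WT mean of each gene, for GOF samples (red, left of each pair) and WT samples (blue, right), from import to breakdown. Slc7a11, Slc3a2, Abcc1 and Chac1 lie above the WT samples in GOF, Gclc, Gss and Gsr lie below, and Gclm, Gpx4 and Gpx1 overlap. Abcc4, Ggct, Ggt5 and Lap3, which were lower in GOF, are not shown.

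Enzymes that use glutathione gave mixed results, with 4 of 25 peroxidase, transferase and glutaredoxin genes higher and 7 lower (median -0.10). Gstm1, a glutathione transferase gene, rose by 0.75, while the glutaredoxin genes Glrx and Glrx5 changed by -0.58 and -0.48 (limma adjusted p = 2.52e-06, 1.93e-05 and 0.00573). Gpx1, the abundant cytosolic peroxidase gene of red cells, ranged from 130 to 235 in GOF and from 161 to 204 in WT and was not called (limma adjusted p = 0.565, chosen after its values were seen). Without mitochondrial genes at equal column totals 2 of this list were higher. Near-identical transferase genes may share reads.

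Of 19 thioredoxins, peroxiredoxins, sestrins and methionine sulfoxide reductases, 4 were higher and 8 lower (median -0.05). Sesn2, a stress-induced sestrin gene, rose by 1.8, and Msrb2, a mitochondrial methionine sulfoxide reductase gene, changed by -0.87 (limma adjusted p = 1.88e-10 and 7.76e-06). Prdx1, a cytosolic peroxiredoxin and known NRF2 target, had 306, 279, 276 and 301 normalized reads in GOF and 403, 420, 408 and 413 in WT, with a log2 change of -0.50 ± 0.04 (SE, limma adjusted p = 1.55e-07). The substrate of TXNRD1, thioredoxin 1 (Txn1), changed by -0.28 (limma adjusted p = 0.000261), with 129 to 155 in GOF and 168 to 178 in WT. Its choice followed its values. The mitochondrial superoxide dismutase gene Sod2, with a log2 change of -0.35, was the 1 of 4 dismutase and catalase genes past the threshold.

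The remaining lists divided. In NADPH supply 5 of 16 genes were higher and 5 lower. The highest rises were in genes of mitochondrial enzymes, Mthfd1l (1.32), Mthfd2 (1.02) and Me2 (0.86). The 5 that fell were Mthfd1 (-0.71), Nadk (-0.47), Idh1 (-0.45), Taldo1 (-0.42) and Pgd (-0.22), named after their values were seen. A place in this list does not mean that an enzyme itself makes NADPH. Whether the products of any of these genes supply NADPH in this tissue was not tested. In haem breakdown and iron storage, the surroundings of Hmox1, 3 of 14 were higher and 3 lower. The transferrin receptor gene Tfrc rose by 0.72, the porphyrin transporter gene Abcb6 by 0.61, and the iron importer gene Slc11a2 changed by -0.57. Hmox2, the constitutive haem oxygenase gene, had 47.7 ± 2.3 for GOF and 53.4 ± 4.54 for WT (n = 4 each, SD), with overlapping samples and a log2 change of -0.16 (limma adjusted p = 0.0413). That call was lost in each of the 6 fits that left out GOF sample 1, GOF sample 3, GOF sample 4, WT sample 2, WT sample 3 or WT sample 4, with array weights, and in limma without trend and robust prior (limma adjusted p 0.0639 to 0.13). It was named for its role after its values were seen. In quinone and carbonyl reduction 3 of 14 were higher and 6 lower, with the aldose reductase family genes Akr1b8 and Akr1b3 at -0.71 and -0.65 and the UDP-glucose dehydrogenase gene Ugdh at 0.70. In selenoprotein synthesis, which makes the active residue of GPX4 and TXNRD1, 4 of 9 were lower and 1 higher. The elongation factor gene Eefsec and the selenophosphate synthetase family gene Sephs1 changed by -0.46 and -0.42. The gene that was higher, Selenbp1 (2.64), encodes a selenium-binding protein that is no part of that synthesis. Without GOF sample 2 or WT sample 4, and under 4 other settings, there were 2 higher. In ferroptosis and lipid peroxide defence 5 of 13 were higher and 1 lower. Tfrc, also of this list, was at 0.72, Gch1, which starts tetrahydrobiopterin synthesis, at 0.68 and Dhodh at -0.39. These counts do not measure defence. In this list, 2 were lower with quantile normalization and 3 with mitochondrial genes left out at equal column totals.

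**Figure D5:**
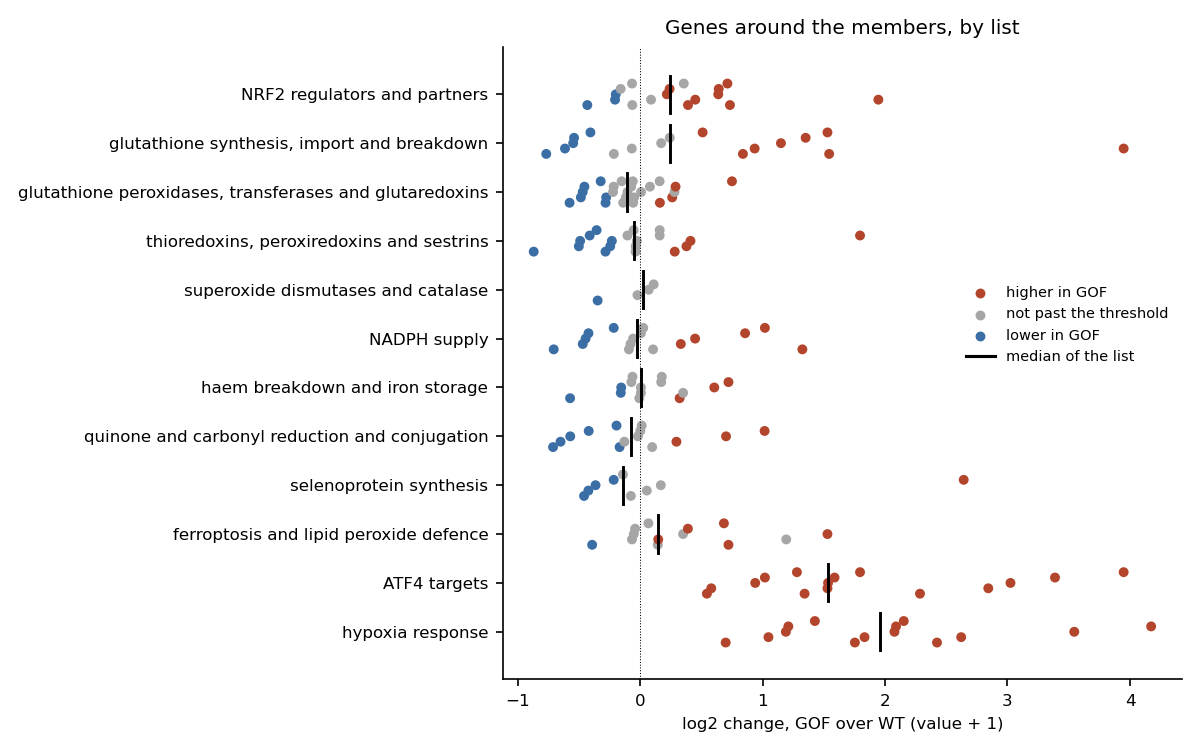
Log2 change, GOF over WT, of each measured gene of 10 redox lists and, in the lowest rows, of ATF4 targets and the hypoxia response, coloured by the call, with the median of each list as a black bar. The redox lists straddle 0 with medians between -0.14 and 0.24, while all genes of the lowest rows are above 0.

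Genes listed for other stress programmes were higher in the same GOF samples. All 15 of the measured ATF4 targets rose (median 1.53), among them Trib3 (3.39) and Vldlr (3.02). All 14 of 14 genes of the hypoxia response also rose (median 1.95), among them Ndrg1 (4.17), Egln3 (3.55) and Car9 (2.62). Of all genes, 28.2% were higher. These lists were chosen with earlier results of these data known, so the counts are a description. The ATF4 list holds Atf4 itself, and Atf3 is also among the immediate early genes. Immediate early and handling genes, a possible sign of tissue handling, rose in 11 of 11 and summed to 426 to 481 normalized reads in GOF and 169 to 189 in WT. Their part in the change of Hmox1 or Txnrd1 was not tested. Markers of other cell types moved less uniformly. Endocardial and endothelial markers summed to 932 to 1142 in GOF and 1096 to 1164 in WT over 10 genes, with 2 higher and 5 lower. Epicardial markers summed to 757 to 955 in GOF and 280 to 309 in WT over 10 genes, with 5 higher. Most of that gap was in Krt19, a keratin gene, at 499.6 to 643 in GOF and 63 to 77.3 in WT, and the median log2 change of the list was 0.35. Platelet markers summed to 33.3 to 182 in GOF and 27.1 to 35.9 in WT over 7 of 8 genes, with 1 higher. Markers of foregut endoderm and liver bud, of which 5 of 11 were measured, summed to 24.5 to 36 in GOF and 11.1 to 53.4 in WT, with 2 higher. Transcripts of the mitochondrial chromosome took 1.21% to 1.39% of the summed values in GOF and 3.11% to 3.31% in WT. With these left out and columns set to equal totals, the median log2 change of all genes was -0.06, and Hmox1, Txnrd1, Gclc, Gsr and Keap1 kept their direction and call.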

How the data were processed

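The deposited table, made by the authors, gives a normalized count per gene and sample, treated here as a signal. The submitters' processing notes list CASAVA (1.8.2), cutadapt (1.6), RSEM (1.2.3), FastQC and build GRCm38, without saying what each did. How the values were normalized, which annotation was used and whether low genes were removed is not given in the sources used here. A step per column, estimated from its low values, made 100% of values a whole read number plus 0.5 within 0.01 reads. An independent check of this passed for only some columns, so no count model was run and depths are implied. At this depth 3 reads are 0.17 to 0.242 normalized reads (counting error only).

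Values were analysed as log2(value + 1) in limma 3.58.1 (R 4.3.3, intensity trend, robust prior, no covariate), with two-sided tests adjusted by Benjamini-Hochberg over 13637 genes. The pseudocount makes a log2 change understate that of low genes. A filter (1 normalized read or more in 4 samples or more) removed no gene. Symbols matched 13560 genes. Replicate pairs of a group differed beyond sampling noise (chi-square per df 3.485 to 18.99). Exact permutation tests used scipy 1.17.1. A listed erythroid marker is not reported here and is left out of the marker sum.

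The members and gene lists were chosen with earlier results of these data known. Named are the 10 members, Bmp2, the 3 largest called changes of each list with a mean of at least 5 normalized reads, the 3 genes most like Nfe2l2, markers, and genes said to be chosen after their values were seen. Alternatives were other pseudocounts, filters, scalings and limma settings, a replicate block, and each sample left out in turn.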

Additional observations from a re-analysis of the deposited data

How the results depend on the processing

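Of the members, 2 were higher, and 1 was higher with quantile normalization, in equal column totals that leave out mitochondrial genes, and in limma without trend and robust prior, and 1 to 2 were when each sample was left out in turn. The gene that lost its call was Gpx4. Hmox1, Txnrd1, Gclc, Gsr and Keap1 kept direction and call in 18 of 18 alternatives, with log2 changes of 1.32 to 1.43, -0.80 to -0.72, -0.39 to -0.28, -0.32 to -0.23 and -0.21 to -0.13.

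The median of the 10 redox lists was -0.0745 with quantile normalization and -0.0979 without mitochondrial genes, and -0.045 to -0.0072 when each sample was left out. Nfe2l2 was -0.0398 without mitochondrial genes. Nqo1 was -0.0631 with quantile normalization and -0.0145 without mitochondrial genes. With each sample left out, Nqo1 ranged over -0.0787 to 0.11, Gclm over -0.235 to 0.0153 and Srxn1 over -0.242 to 0.0103. The sign of these 4 genes is not determined, and at 12 to 19 reads a sample depth limits Nqo1, which a filter of 5 normalized reads removed. The causes were not tested.

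With a replicate block, 2 members were higher and 4 lower, and over all genes 3678 were higher and 3677 lower. Deviations of same-numbered samples from their group means had an r of -0.137 to 0.00674. The labels state no pairing, and these values cannot show whether same-numbered samples shared a litter or a batch.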

Other observations

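The genes whose levels followed Nfe2l2 most closely, after the mean of each group was taken away, were Pigp (Pearson r 0.981), Dop1b (0.98) and Bloc1s5 (0.973), out of 11122 genes compared over the 8 samples. These were selected for their r, which is a description. Among the members, Gclc had an r of 0.963 with Nfe2l2 on the same scale, and the other members with a mean of at least 5 normalized reads had values between -0.229 and 0.525. Nfe2l2 varied little within a group (SD 2.08 in GOF and 3.2 in WT) at 658 to 924 reads a sample. Part of that variation may be counting error, and no test was made of these r values. In both groups the sample with the highest Nfe2l2, GOF sample 1 and WT sample 2, also had the highest Gclc of its group, while Gclc was lower in GOF and Nfe2l2 overlapped.

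Ratios of 2 genes within a sample do not depend on the scale of its column, and 4 were taken after the values were seen. They restate changes of single genes given above and are a description. They are ratios of normalized reads without correction for length. Hmox1 to Hmox2 was 1.26, 1.1, 1.17 and 1.13 in GOF and 0.421, 0.384, 0.437 and 0.323 in WT, without overlap. Bach1 to Nfe2l2 was 1.25 ± 0.15 in GOF and 0.963 ± 0.052 in WT, and Txnrd1 to Txn1 was 0.812 ± 0.058 in GOF and 1.11 ± 0.055 in WT (n = 4 each, SD), both without overlap. Gclc to Gclm was 0.54, 0.665, 0.883 and 0.64 in GOF and 0.805, 0.818, 0.728 and 0.791 in WT, and overlapped because of GOF sample 3.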
